A study of Mus musculus with 4 samples.

Results

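The 9 genes described here encode the enzymes that write, copy and remove 5-methylcytosine in mouse DNA, and the cofactors that the writers need. They are Dnmt1 and Uhrf1, which maintain methylation, Dnmt3a, Dnmt3b and Dnmt3l, which set it de novo, Tet1, Tet2 and Tet3, which oxidise it, and Tdg, which excises the oxidised base. They were chosen by symbol, though with earlier results of these data known, and all 9 were found among the 46078 genes of the deposited count tables. The data are full-length single-cell RNA sequencing (Smart-seq2) of wild-type E14 mouse ES cells, which were kept in 2i, sorted, and then held for 6 h in 2i or in N2B27. 2i is N2B27 with inhibitors of MEK and GSK3, which hold ES cells in naive pluripotency, and the study's routine 2i medium also held leukemia inhibitory factor (LIF). The labels of these samples name 2i only. N2B27 alone lets the cells leave naive pluripotency. Cells came either through a gate for small cells, set on forward and side scatter to take cells just out of mitosis or in G1, or through no size gate. Medium and gate together made 4 groups, of 1 sample and 24 cells apiece. The comparisons ask how medium and size gate relate to the levels of these genes. With 1 sample per group there was no replicate and no test, so every difference below compares these samples, and cells of a sample are not replicates.

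DNA methylation in mammals sits mainly on cytosines of CpG pairs. After replication Uhrf1 binds CpGs that carry the mark on the old strand only and brings in Dnmt1, which copies it to the new strand. Dnmt3a and Dnmt3b methylate bare CpGs, helped by Dnmt3l, a relative with no catalytic activity of its own. Tet enzymes oxidise the mark, and it is then diluted by replication or cut out by Tdg and base excision repair. ES cells in 2i are known for low genome-wide methylation, which is regained when they leave naive pluripotency.

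Of the 96 cells, 75 passed the filters, namely 12 in 2i small, 22 in 2i ungated, 20 in N2B27 small and 21 in N2B27 ungated. These held between 1364155 and 4844170 counts on genes. Of the 21 cells left out, 10 had more counts on spike-ins than on genes, and 9 of those 10 were 2i small. Even among the kept cells the 2i small sample stood apart, with a spike-in share between 0.0673% and 40.9%, against at most 2.42% in 2i ungated cells. The kept 2i small cells also included 1 with 15712 genes detected, against a median of 7603. The cells of both media were on separate plates, so medium and plate cannot be told apart. On each plate the small cells carried the index names i502 and i503 (index rows below) and the ungated cells i510 and i511. Gate and index row therefore cannot be told apart either. All 8 ES cell markers examined had counts in at least 50% of the cells of every group. No marker of primitive endoderm, trophectoderm, 2-cell-like cells or feeder fibroblasts reached that share in any group. Values below are counts divided by a size factor per cell (normalized counts). Log2 ratios are of group means plus 1, which understates the change of low genes. Genes are compared with each other per length, as counts per kilobase of exon scaled to the same sum in each cell (TPM).

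Per length, Dnmt3l, Uhrf1 and Dnmt3b held 3 of the top 4 places in every group, and Tet3 the last. In 2i ungated cells the mean level was 132 TPM for Uhrf1 and 124 TPM for Dnmt3l, a gap far smaller than the spread between cells. Dnmt3b followed at 56.5 TPM. Dnmt3a (15.7 TPM), Dnmt1 (13.5 TPM) and Tet1 (12.4 TPM) formed a group of close levels below them, and Tet2 (4.86 TPM) and Tdg (2.25 TPM) were lower. Tet3 was close to absent at 0.276 TPM. In N2B27 ungated cells Dnmt3l led at 215 TPM, ahead of Uhrf1 at 58.6 TPM and Dnmt3b at 47.8 TPM. Dnmt1 lay at 4.85 TPM there, below Dnmt3a at 24.1 TPM and Tet1 at 15.1 TPM. Among N2B27 small cells Dnmt1 was above Dnmt3b, at 18.8 against 15.8 TPM. Among 2i small cells Dnmt3a, at 1.64 TPM, was below Tet2 at 4.45 TPM, whose mean rested largely on 1 cell.

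**Figure D1:**
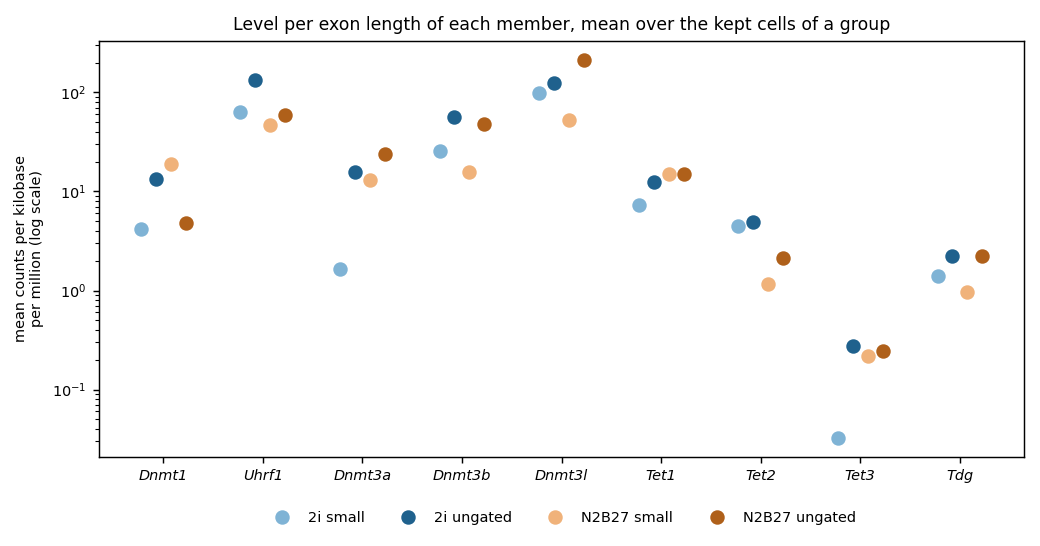
Mean level of each gene per exon length, in TPM on a log axis, with 1 point per group. Dnmt3l, Uhrf1 and Dnmt3b are at the top and Tet3 at the bottom, and Dnmt1 lies at 4.85 TPM in N2B27 ungated and at 18.8 TPM in N2B27 small cells.

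The means hide a split among cells. For most of these genes some cells held high normalized counts and others of the same sample held few or none. Trace counts also occurred in nearly empty wells. Of the 10 wells with more spike-in than gene counts, 7 had 1 or 2 counts of Uhrf1 and 4 had 1 or 2 of Dnmt1. A level of at least 20 normalized counts was therefore used to call a gene clearly present, a limit chosen after the values were seen. By that limit the median cell held 6 of the 9 genes in 2i ungated, 5 in N2B27 ungated, 3.5 in N2B27 small and 3 in 2i small. Both maintenance genes were clearly present in 17 of 22 cells in 2i ungated and 8 of 21 in N2B27 ungated. The small groups had 5 of 12 such cells in 2i and 6 of 20 in N2B27. All 3 de novo genes were clearly present in 15 of 22 cells in 2i ungated, 10 of 21 in N2B27 ungated, 3 of 12 in 2i small and 2 of 20 in N2B27 small. None of the 3 was clearly present in 4 of 12 cells of 2i small and 5 of 20 of N2B27 small, against 0 of 22 in 2i ungated and 2 of 21 in N2B27 ungated. By the rule of 3 (3 over the number of cells), the count of 0 allows a share of up to 13.6%. Small cells also had higher spike-in shares and fewer genes detected. The median spike-in share was 3.47% against 1.28% in 2i and 2.45% against 1.14% in N2B27, and the median number of genes was 7603 against 9516 and 7463 against 8200. The part of these differences in the levels of the 9 genes was not tested.

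**Figure D2:**
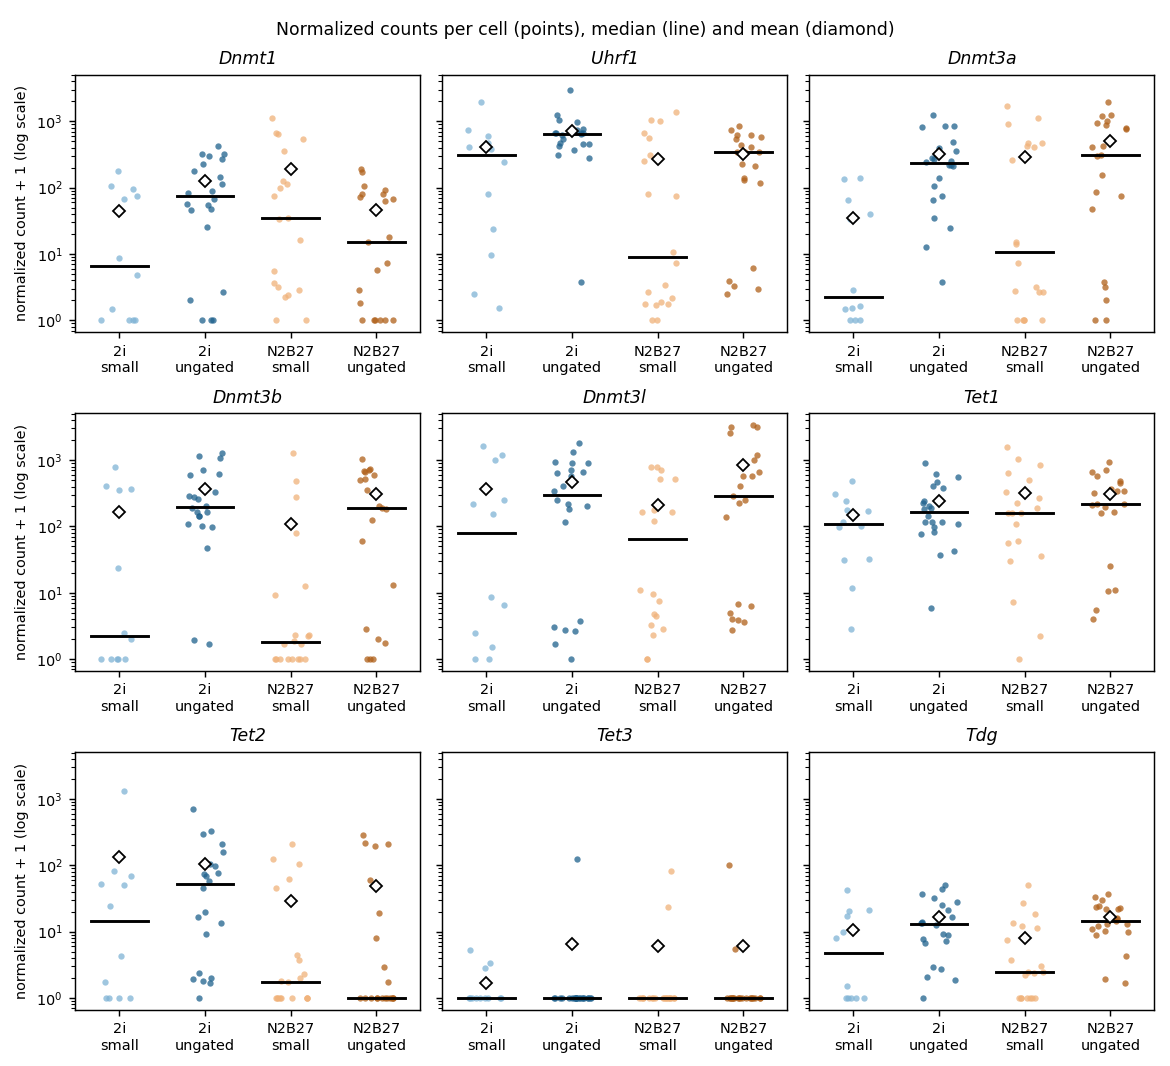
Normalized counts plus 1 on a log axis for each of the 75 kept cells, by gene and group, with the median as a line and the mean as an open diamond. Many genes show a high and a low set of cells within 1 group. Below 20 normalized counts lie 11 of the 20 N2B27 small cells for Uhrf1, 12 for Dnmt3a and 16 for Dnmt3b, against at most 2 of the 22 2i ungated cells.

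**Figure D3:**
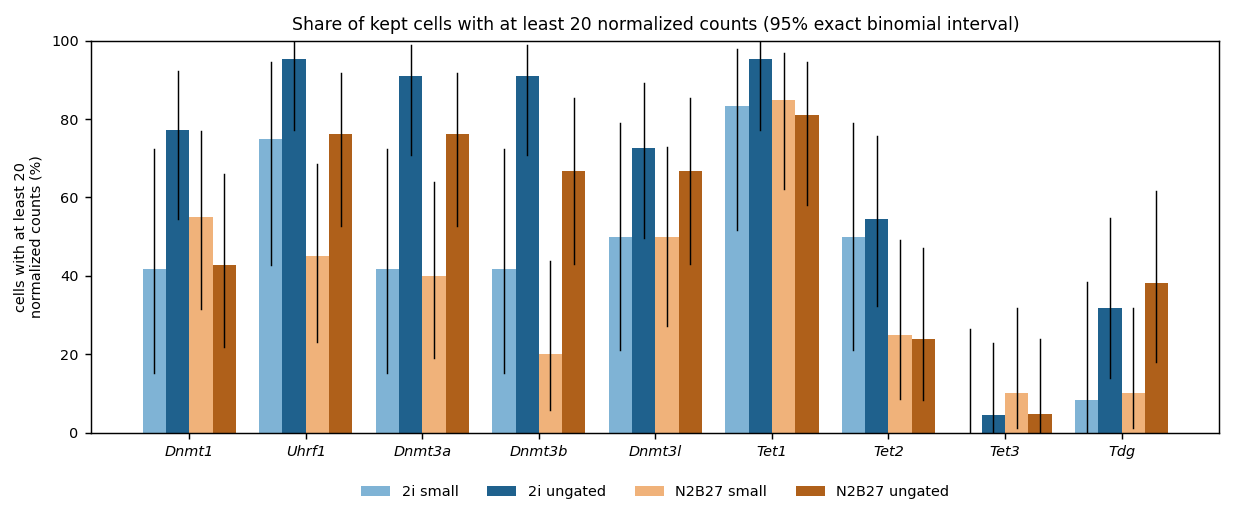
Share of the kept cells of each group with at least 20 normalized counts, in percent, with 95% exact binomial intervals that cover counting error only. Dnmt3b has its lowest share in N2B27 small cells, at 20%, and its highest in 2i ungated cells, at 90.9%.

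Dnmt1 (ENSMUSG00000004099, chr9:20907209-20959888, minus strand, GRCm38) encodes the maintenance methyltransferase. In 2i ungated cells its normalized counts ran from 0 to 422 with a median of 73.3 and a mean of 125. Those of N2B27 ungated cells ran from 0 to 187 with a median of 14.3 and a mean of 45.3. The ranges overlapped, and the highest N2B27 ungated cell lay well below the highest 2i ungated cell. Dnmt1 was clearly present in 17 of 22 cells in 2i ungated (77.3%, exact binomial interval 54.6% to 92.2%) and in 9 of 21 in N2B27 ungated (42.9%, 21.8% to 66.0%). The log2 ratio of N2B27 over 2i was -1.44, or 2.72-fold lower, and the summed counts were 1131 (exact Poisson interval 1066 to 1199) against 3211 (3101 to 3324). These intervals, like those below, cover counting error only. The ratio was between -1.87 and -0.827 under the 18 other settings tried.

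In the small cells the order of the media was the other way round. In N2B27 small cells Dnmt1 ran from 0 to 1101 with a median of 33.5 and a mean of 190.5. The 2i small cells ran from 0 to 178 with a median of 5.65 and a mean of 43.9. Only 5 of the 12 cells in 2i small held Dnmt1 clearly, against 11 of the 20 in N2B27 small. The log2 ratio of N2B27 over 2i was 2.09 in small cells. Small cells were 2.05 higher than ungated cells on the log2 scale in N2B27 and 1.49 lower in 2i (log2 ratio -1.49). Scaling by spike-ins in place of genes turned the medium ratio in small cells to -1.25 and the gate ratio in 2i to 0.66. It left the gate ratio in N2B27 at 0.94. The direction in the 2i small sample therefore depended on how cells were scaled, while in N2B27 small cells were above ungated cells both ways.

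Uhrf1 (ENSMUSG00000001228, chr17:56303321-56323486, plus strand), the reader that recruits Dnmt1, had counts in every cell of 3 groups. In 2i ungated cells it ran from 2.76 to 2912 with a median of 646 and a mean of 706, and all but 1 of the 22 cells held it clearly. In N2B27 ungated cells it ran from 1.5 to 855 with a median of 339 and a mean of 317. The log2 ratio was -1.15, or 2.22-fold lower in N2B27, and it was negative under all 18 other settings. Among N2B27 ungated cells 16 of 21 held Uhrf1 clearly, and the other 5 had at most 5.04 normalized counts. In N2B27 small cells the range was 0 to 1357 with a median of 8.06 and a mean of 268. Only 9 of those 20 cells held it clearly, so the mean, close to that of ungated cells (log2 ratio -0.24), came from fewer cells with high values. In 2i small cells it ran from 0.548 to 1982, with a median of 311 and a mean of 412.

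Counts of Uhrf1 may be split with a copy. Gm5648, a processed pseudogene on chrX:121334988-121336574 (minus strand), matches the last 67.6% of the coding sequence with 24 differing bases and 3 gap bases, and the longest stretch without a difference is 194 bases. The 150 bases with most differences are shown because a read of this region can be told from the copy at few positions only. They are bases 1640 to 1789 of the Uhrf1 coding sequence (GENCODE M21) and chrX:121335548-121335697 for the copy, with capitals at the 5 differing bases.

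Uhrf1: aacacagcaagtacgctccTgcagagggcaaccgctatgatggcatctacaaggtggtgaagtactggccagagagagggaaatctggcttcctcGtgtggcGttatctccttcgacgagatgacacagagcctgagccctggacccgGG
Gm5648: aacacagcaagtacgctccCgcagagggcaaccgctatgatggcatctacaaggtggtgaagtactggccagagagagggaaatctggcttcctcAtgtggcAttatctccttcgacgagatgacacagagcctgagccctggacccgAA

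Of the counts on both genes, 93.6% were on Uhrf1 in 2i small, 90.1% in 2i ungated, 90.6% in N2B27 small and 89.6% in N2B27 ungated. Adding the copy moved the ratio in ungated cells from -1.15 to -1.14. Across the 75 cells, after group means were taken out, Gm5648 was also the gene most like Uhrf1 (Pearson r = 0.84), ahead of Upp1 (uridine phosphorylase, r = 0.68) and G3bp2 (an RNA-binding protein, r = 0.61). The cells share plate, lane and depth, and these correlations are a description without a test.

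Dnmt3a (ENSMUSG00000020661, chr12:3806007-3914443, plus strand) encodes a de novo methyltransferase. Its 2i ungated values ran from 2.76 to 1231 with a median of 231 and a mean of 324. The N2B27 ungated values ran from 0 to 1983 with a median of 314 and a mean of 507. These ranges overlapped nearly wholly and the log2 ratio was 0.65. In the small cells it was lower in both media. The 2i small cells ran from 0 to 140.3 with a median of 1.24 and a mean of 34.3, so the highest of them lay below the median of 2i ungated cells. In N2B27 small cells the range was 0 to 1698 with a median of 9.86 and a mean of 289.9. Dnmt3a was clearly present in 5 of 12 cells in 2i small and 8 of 20 in N2B27 small, against 20 of 22 and 16 of 21 in the ungated groups. The gate ratio was -3.20 in 2i, the lowest of all 9 genes, and -0.80 in N2B27. The medium ratio in small cells was 3.04, and it kept that sign in 17 of 18 other settings, the exception being the analysis that kept nearly empty wells.

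Dnmt3b (ENSMUSG00000027478, chr2:153649450-153687730, plus strand), the other de novo methyltransferase, differed by gate more than by medium. Normalized counts in 2i ungated ran from 0.689 to 1261 with a median of 195 and a mean of 361. In N2B27 ungated cells it ran from 0 to 1039.8 with a median of 188 and a mean of 312, giving a log2 ratio of -0.21. Small cells in 2i ran from 0 to 799 with a median of 1.25, and in N2B27 small cells from 0 to 1274 with a median of 0.805. It was clearly present in 90.9% of the 22 cells in 2i ungated (exact binomial interval 70.8% to 98.9%) and 66.7% of the 21 in N2B27 ungated (43.0% to 85.4%). In small cells it was clearly present in 41.7% of 12 in 2i (15.2% to 72.3%) and 20% of 20 in N2B27 (5.73% to 43.7%). The gate ratio was -1.15 in 2i and -1.53 in N2B27, and 1 cell held 58.8% of the Dnmt3b counts of the N2B27 small sample. Dnmt3c, a related gene 93.9% identical to Dnmt3b over 1434 bases, had at most 30 counts in any group.

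Dnmt3l (ENSMUSG00000000730, chr10:78041947-78063622, plus strand) encodes the cofactor of both. Across 2i ungated cells it ran from 0 to 1817 with a median of 293 and a mean of 462. In N2B27 ungated cells it ran from 1.74 to 3373 with a median of 285 and a mean of 834. The medians were nearly equal and the means were not, and 4 of the 21 N2B27 cells lay above the highest 2i cell, at a log2 ratio of 0.85. The highest single N2B27 cell held 20.8% of that sample's counts. By index row of the plate, the ratio was 1.36 in the first and 0.24 in the second. Across 2i small cells Dnmt3l ran from 0 to 1637 with a median of 79.0 and a mean of 371, and in N2B27 small cells from 0 to 798 with a median of 64.5 and a mean of 209.9. The gate ratio was -1.98 in N2B27 and past 2-fold under all 18 other settings there, while in 2i it was -0.32. Aire, which overlaps Dnmt3l on the opposite strand, had 527 counts in 9 of 21 cells in N2B27 ungated and at most 31 in any other group. Whether counting used strand was not given in the sources used here, so reads of both genes cannot be told apart where they overlap.

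Tet1 (ENSMUSG00000047146, chr10:62804570-62908996, minus strand), an oxidising dioxygenase, was the most evenly present of the 9. It was clearly present in 10 of 12 cells in 2i small, 21 of 22 in 2i ungated, 17 of 20 in N2B27 small and 17 of 21 in N2B27 ungated. It ran in 2i ungated from 4.83 to 892 with a median of 163, and in N2B27 ungated cells from 3.09 to 920.5 with a median of 217. The means of 240.5 and 304 gave a log2 ratio of 0.34. That ratio was above 0 in 14 of 18 other settings and lowest with fixed limits on cells, at -2.93. In 2i small cells it ran from 1.88 to 484 with a median of 109, and in N2B27 small cells from 0 to 1591 with a median of 159.6. The medium ratio in small cells was 1.11, and -0.96 with spike-in scaling. The gate ratio was 0.07 in N2B27 and -0.70 in 2i.

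Tet2 (ENSMUSG00000040943, chr3:133463679-133545139, minus strand) was lower in N2B27 than in 2i with either gate. In 2i ungated cells it ran from 0 to 694 with a median of 50.9 and a mean of 103. Across N2B27 ungated cells it ran from 0 to 282 with a median of 0 and a mean of 47.0. It had a count in 21 of 22 cells in 2i ungated and 9 of 21 in N2B27 ungated, and was clearly present in 12 and 5 cells. The log2 ratio was -1.12 (summed counts 1175 against 2632). By index row of the plate it was -2.17 and -0.60. It was positive where no cell was left out (5.33) and with fixed limits on cells (5.24), and 1 of the wells with more spike-in than gene counts held 472 counts of Tet2. Small cells in 2i had Tet2 between 0 and 1327 with a median of 13.5 and a mean of 134, and the cell with 1327 held 58.2% of the counts. In N2B27 small cells it ran from 0 to 211 with a median of 0.769 and a mean of 27.8. The log2 ratio was -2.23 over all small cells and -0.46 with the highest cell of each gene left out.

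Tet3 (ENSMUSG00000034832, chr6:83362373-83459084, minus strand) was at the edge of detection. It had counts in 3 of 12 cells in 2i small, 1 of 22 in 2i ungated, 2 of 20 in N2B27 small and 2 of 21 in N2B27 ungated. The summed counts were 14, 110, 120 and 117. A single cell held all of those in 2i ungated, and the highest cell held 94.9% of those in N2B27 ungated. Ratios of Tet3 rest on at most 3 cells of a group.

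Tdg (ENSMUSG00000034674, chr10:82629828-82650799, plus strand), the glycosylase that removes the oxidised base, was low by its own counts, and near-identical copies held more counts than the gene itself. By its own counts it ran from 0 to 49.5 in 2i ungated with a median of 12.0, from 0.694 to 36.0 in N2B27 ungated with a median of 13.3, from 0 to 41.6 in 2i small with a median of 3.79, and from 0 to 49.5 in N2B27 small with a median of 1.43. Its 3 processed pseudogenes cover 94.2% to 99.8% of its coding sequence. Gm9855 (chr10:42054113-42055306, minus strand) differs from it at 9 of 1191 bases, Gm5597 on chromosome 7 at 8 of 1190, and Tdg-ps on chromosome 15 at 16 of 1260. The longest stretch without a difference between Tdg and Gm9855 is 756 bases. The stretch with most differences is shown, since it holds 5 of the 9 differing bases. It covers bases 1024 to 1173 of the Tdg coding sequence and chr10:42054206-42054355 for the copy, with capitals at the 5 differing bases.

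Tdg: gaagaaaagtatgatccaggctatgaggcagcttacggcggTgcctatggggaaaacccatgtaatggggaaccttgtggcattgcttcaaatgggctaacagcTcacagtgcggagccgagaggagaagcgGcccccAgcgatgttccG
Gm9855: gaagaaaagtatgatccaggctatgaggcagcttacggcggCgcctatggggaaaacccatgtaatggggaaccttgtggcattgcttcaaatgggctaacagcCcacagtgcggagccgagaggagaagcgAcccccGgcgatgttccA

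Gm9855 held 1269 counts in 2i small, 3599 in 2i ungated, 2007 in N2B27 small and 3990 in N2B27 ungated. Tdg itself held 187, 420, 163 and 379, which is 12.4%, 10.1%, 7.28% and 8.35% of the counts on Tdg and its copies. Only 0.0498% of all counts of the tables were set aside as not uniquely aligned. Which of the near-identical genes the reads came from cannot be told from these tables. Summed with its copies, Tdg had a mean of 167 normalized counts in 2i ungated and 182 in N2B27 ungated, with ranges of 0 to 394 and 19.9 to 480. In small cells the mean was 73.4 in 2i, with a range of 0 to 367, and 84.7 in N2B27, with a range of 0 to 370. The sum had a count in 21 of 22 and 21 of 21 ungated cells, and in 8 of 12 and 14 of 20 small cells. Its medium ratios were 0.12 in ungated and 0.20 in small cells, and its gate ratios -1.17 in 2i and -1.09 in N2B27. With the copies, Tdg thus passed the limit on low values that it missed alone. Gm9855 was also among the 3 genes most like Tdg across cells (r = 0.56), beside Topors (a ubiquitin and SUMO ligase, r = 0.58) and Cnot7 (a deadenylase subunit, r = 0.52).

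**Figure D4:**
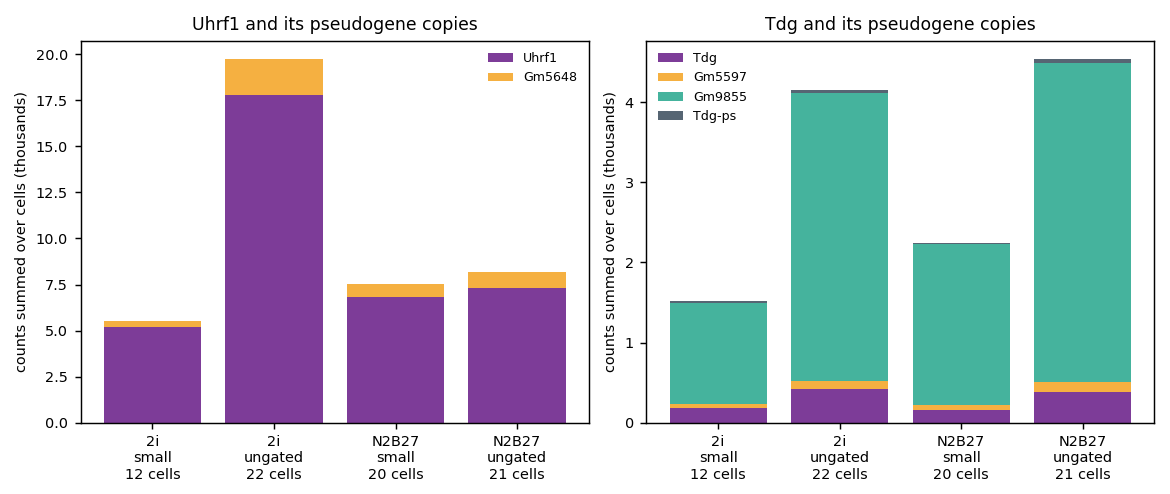
Counts summed over the kept cells of each group on Uhrf1 (left) and Tdg (right) and stacked on their processed pseudogene copies. Uhrf1 carries 89.6% to 93.6% of its stack, whereas Tdg carries 7.28% to 12.4% and Gm9855 nearly all the rest.

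Set side by side, the comparisons gave between 0 and 4 of the 9 members beyond 2-fold in each direction, at shares that have to be read against all genes. Of the 9 members 7 had a mean of the group means of at least 20 normalized counts, as did 8730 genes in all, and Tet3 and Tdg did not. Shares of all genes are over these 8730, while the counts of 9 include Tet3 and Tdg. Over the 22289 genes with any count, 18.4% were higher in N2B27 for medium in small cells. By gate, 16.4% of those were lower in small N2B27 cells and 25% in small 2i cells. In ungated cells N2B27 was higher than 2i by at least 2-fold for 0 of 9 members (7.49% of all genes) and lower for 3 of 9, namely Dnmt1, Uhrf1 and Tet2 (9.92% of all genes). The median log2 ratio was -0.13 over the members and -0.03 over all genes. In small cells N2B27 was higher for 4 of 9, Dnmt1, Dnmt3a, Tet1 and Tet3 (22.3% of all genes), and lower for 1 of 9, Tet2 (19.2% of all genes), with medians of -0.36 and 0.09. Small N2B27 cells were higher than ungated ones for 1 of 9, Dnmt1 (11.8% of all genes), and lower for 3 of 9, Dnmt3b, Dnmt3l and Tdg (17.1% of all genes), with medians of -0.74 and -0.12. Small 2i cells were higher for 0 of 9 (16.3% of all genes) and lower for 4 of 9, Dnmt1, Dnmt3a, Dnmt3b and Tet3 (27.8% of all genes), with medians of -0.78 and -0.36. The 4 comparisons share their groups pairwise, so their ratios are not independent. Among all genes, Dnmt1 lay at percentile 5.13 for medium in ungated cells and at percentile 96.6 for gate in N2B27.

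**Figure D5:**
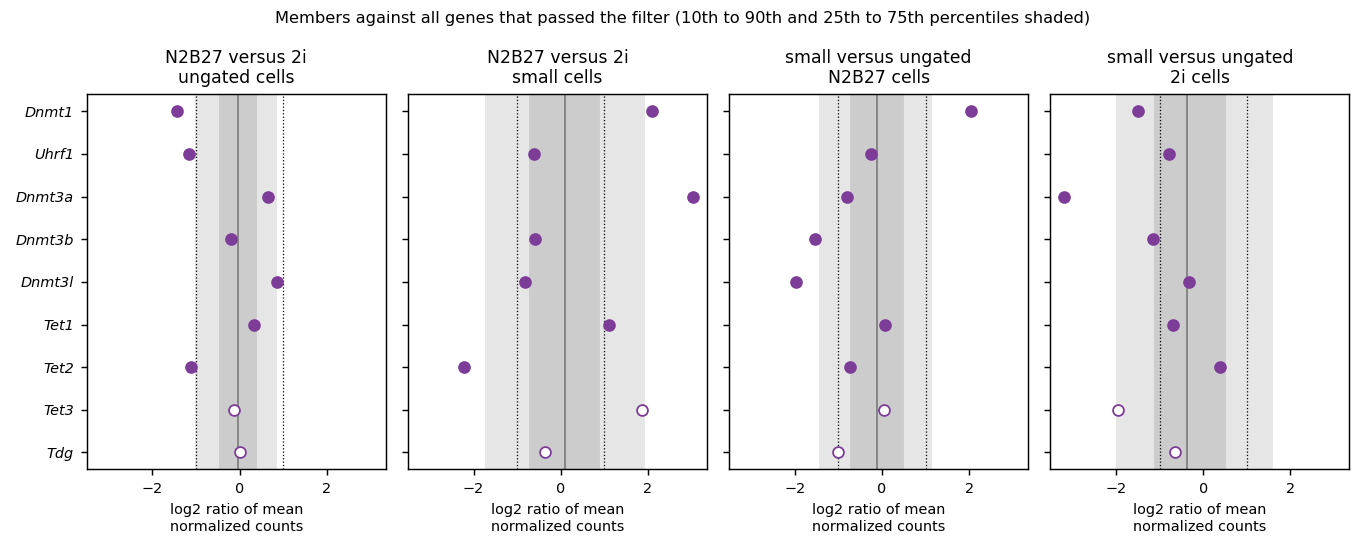
Log2 ratios of mean normalized counts of the 9 members in the 4 comparisons, over the 10th to 90th and 25th to 75th percentiles of the 8730 genes that passed the filter (shaded light and dark, with the median as a grey line). Dotted lines mark 2-fold and open circles the members below the limit on low values. Dnmt1 lies at the low end in ungated cells (-1.44) and near the high end in small cells (2.09).

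Cell cycle phase was called in each cell from marker genes without the members themselves. By these calls 2i ungated held 0 cells in G1, 8 in S and 14 in G2/M, and N2B27 ungated 2, 4 and 15. In 2i small there were 6, 5 and 1, and in N2B27 small 6, 11 and 3. In N2B27 small cells Uhrf1 ran from 0 to 6.26 in the 6 cells of G1, from 0.749 to 1000.4 in the 11 of S and from 559 to 1357 in the 3 of G2/M, so by these calls the G2/M cells all lay above all G1 cells. In N2B27 ungated both G1 cells held at most 5.04 of Uhrf1. In 2i small cells the 6 cells of G1 held up to 1982. Dnmt3b showed the same order in N2B27 small, from 0 to 1.30 in G1, from 0 to 79.7 in S and from 280.5 to 1274 in G2/M. Dnmt1 had medians of 3.56 in G1, 74.7 in S and 15.2 in G2/M there, with wide overlap. Between G1 and S in N2B27 small, 5 members other than Tet3 were lower by at least 2-fold in G1 (37.6% of all genes) and 1 was higher (17.1% of all genes). Tet3 had no count in G1 there and a mean of 2.04 in S, from 1 cell. Members with no count in 1 of the 2 phases were left out of the counts of members. The shares of all genes keep such genes. In 2i small 2 were lower (39.2% of all genes) and 1 higher (28.2% of all genes). Between S and G2/M, 0 members other than Tet3 were beyond 2-fold in 2i ungated (7.46% of all genes higher in S and 12.3% lower). In N2B27 ungated 0 were higher in S (9.68% of all genes) and 1, Tet1, was lower (30% of all genes). Tet3, left out of both, had no count in S. Its G2/M means were 8.75 in 2i ungated (1 cell) and 6.98 in N2B27 ungated (2 cells). In S cells alone, Dnmt1 in N2B27 small had a mean of 151 normalized counts over 11 cells and N2B27 ungated one of 37.8 over 4 cells. Calls from another program (Seurat) gave the opposite order of G1 and S for Dnmt3b and Dnmt3l in both small groups. For Uhrf1 in N2B27 small they gave 0.714 to 559 in G1 and 1.68 to 1357 in G2/M, so the separation of these phases was lost, and the log2 ratio of G1 over S went from -6.45 to -0.15. In 2i small that ratio for Uhrf1 went from 0.83 to -2.27, and the cell with 1982 was called S. How Uhrf1 and Dnmt3b relate to phase in small cells therefore depended on the caller.

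Across the 75 cells, with the group means taken out, the highest correlation between members was between Uhrf1 and Dnmt3b (Pearson r = 0.52, Spearman rho = 0.43). Dnmt3a and Dnmt3b followed (r = 0.44), then Dnmt3b and Dnmt3l (r = 0.39) and Dnmt1 and Dnmt3b (r = 0.38). Dnmt3b thus was in each of the 4 highest of 36 pairs. Dnmt1 and Uhrf1, which act together, had r = 0.29, and Dnmt3a and Dnmt3l, which form a complex, r = 0.01. The 3 Tet genes were at -0.01 (Tet1 and Tet2), 0.01 (Tet1 and Tet3) and 0.04 (Tet2 and Tet3). Each of the 9 members was lower in cells with a higher log spike-in share, with r between -0.36 for Tdg and -0.09 for Tet3, so a shared relation to cell quality is contained in these values and its part was not tested. The genes most like Dnmt3a were Mrpl27, 3110082I17Rik and Cdca8 (r from 0.53 to 0.55), and for Dnmt3b they were Gm5648 (0.62), Plin3 (0.60) and Uhrf1. For Dnmt3l they were Gba2, Jup and Anxa2 (0.49 to 0.52), for Dnmt1 Fem1b, Ube2c and Ino80d (each 0.45), for Tet1 Kars, Ctnnbl1 and Sinhcaf (0.44 to 0.50), and for Tet2 Nkap, Eloc and Umps (0.44 to 0.45).

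Among partners of the maintenance step, all 8 of Uhrf2, Pcna, Usp7, Hells, Cdca7, Lig1, Kdm1a and Dppa3 had a log2 ratio above 0 for small against ungated N2B27 cells, with a median of 0.57 (44.7% of all genes were above 0), and 3 were at least 2-fold higher (11.8% of all genes). Of these 8, Cdca7, Pcna, Hells and Kdm1a were at 0.12 to 0.24. For gate in 2i, where Dnmt1 was at -1.49, 6 of the 8 were above 0, with a median of 0.39, and 2 were higher and 0 lower by 2-fold (16.3% and 27.8% of all genes). For gate in N2B27, Dppa3, which keeps Uhrf1 off chromatin, had the highest ratio, 4.23, from means of 569 and 29.4 normalized counts. In ungated cells it was the lowest for medium, at -2.58 (29.4 in N2B27 against 181 in 2i). Usp7, a deubiquitinase that binds Dnmt1 and Uhrf1, was at 2.08 for gate in N2B27 and at -1.45 for medium in ungated cells, the same signs as Dnmt1, and at 0.29 for gate in 2i, the opposite sign. Hells, a chromatin remodeller that helps methylation, differed by at most 0.34 in any comparison, and Cdca7, its activator, by at most 0.44. For medium in small cells Lig1, the ligase of Okazaki fragments, was highest (1.18) and Kdm1a, a histone demethylase, lowest (-1.22). Pcna, the replication clamp, was highest for medium in ungated cells, at 0.22. Over the list, 3 of 8 were lower and 0 higher by 2-fold for medium in ungated cells (9.92% and 7.49% of all genes). In small cells it was 1 of 8 each way (19.2% lower and 22.3% higher among all genes). Ratios of this and the following lists were computed with the main scaling only. Spike-in scaling moved the median of all genes for gate in N2B27 from -0.12 to -0.82, and poscounts size factors moved it for medium in ungated cells from -0.03 to 0.40.

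Among 10 partners and regulators of de novo methylation 9 passed the limit on low values, and Dnmt3c did not. Prdm14, which holds Dnmt3b and Dnmt3l down in naive cells, was lower in N2B27 than in 2i, at -1.03 in ungated and -1.32 in small cells, from means of at most 76.2 normalized counts and counts in at most 11 cells of a group. In ungated cells 1 gene was higher, Ehmt2 (a histone H3K9 methyltransferase, 1.46), and 2 were lower by 2-fold, with Nsd1 (a histone H3K36 methyltransferase) lowest at -1.10, where 7.49% of all genes were higher and 9.92% lower. In small cells 2 of 9 were lower (19.2% of all genes) and 0 higher (22.3%), and Ehmt1, the partner of Ehmt2, had the highest ratio at 0.80. For gate in N2B27 Setd2, another H3K36 methyltransferase, was highest at 1.28 and Ehmt2 lowest at -1.97, with 2 of 9 past 2-fold each way (11.8% higher and 17.1% lower among all genes). Of 9 genes for methyl donor supply 7 passed. None of these was past 2-fold for medium in ungated cells (7.49% higher and 9.92% lower among all genes), where Mat2b, a subunit of methionine adenosyltransferase, was highest (0.39) and Ahcyl1 lowest (-0.65). For gate in N2B27 0 of 7 had a ratio above 0 (44.7% of all genes), and Shmt1, a serine hydroxymethyltransferase, was lowest at -0.91. It was also lowest for medium in small cells, at -1.08.

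Of 22 genes for oxidation and base excision beyond the members, 18 passed. For medium in ungated cells 3 of 18 were higher and 1 lower by 2-fold (7.49% and 9.92% of all genes). In small cells 5 were higher and 1 lower (22.3% and 19.2% of all genes). Small N2B27 cells had 1 higher and 4 lower than ungated ones (11.8% and 17.1% of all genes). The extremes were DNA glycosylases and Apobec1, a cytidine deaminase. Neil2 had ratios of 1.93 for medium in ungated and -7.16 in small cells, with counts in at most 3 cells of any group. Neil3 was lowest in ungated cells (-1.93) and highest for gate in N2B27 (1.98), where 1 cell carried it. Smug1 was highest for medium in small cells (3.46), with counts in 6 cells of N2B27 and 2 of 2i. Apobec1 was lowest for gate in N2B27 (-2.38, with counts in at most 5 cells of a group). Among 7 methyl-CpG readers 4 passed. Mbd1 was highest (1.34) for medium in ungated cells and lowest (-1.42) for gate in N2B27. In small cells Mbd3 (0.84) and Mbd1 (-0.66) were the extremes for medium. Among 15 germline genes known to be silenced by promoter methylation 6 passed. Ddx4 was highest for medium in both ungated (1.73) and small cells (2.98), Sohlh2 lowest in ungated (-1.58), and Tex19.1 lowest in small cells (-2.43). The means of Tex19.1 in small cells were 2068 in 2i and 384 in N2B27. Its summed counts were 7182 in 11 cells and 9284 in 19 cells, so the normalized means differed far more than the counts. For gate in N2B27 Sycp3 was highest (1.79) and Sohlh2 lowest (-0.07), and 2 of 6 were higher and 0 lower by 2-fold (11.8% and 17.1% of all genes).

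The promoter windows of the members were searched for 1 kind of motif. In the 250 bases before the annotated starts (RefSeq, GRCm38.p6, 16 windows for the 9 members), the E2F-type letters TTTCCCGC, TTTGGCGC, TTTCGCGC or TTTGCCGC, read on both strands, occurred in 2 windows, 1 of Dnmt1 and 1 of Uhrf1. The other windows of these 2 genes held no match. The letters occurred in 1.86% of 32851 windows of all genes. The members' windows were richer in G and C, with a median of 66.2% against 52.4% over all windows, so that share is not a matched background. The part of this difference in the matches was not tested. The 30 bases around each match are shown with the match in capitals, at chr9:20952824-20952853 (minus strand) for Dnmt1 and chr17:56304117-56304146 (plus strand) for Uhrf1.

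Dnmt1: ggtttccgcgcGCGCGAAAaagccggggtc
Uhrf1: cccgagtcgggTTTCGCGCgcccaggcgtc

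The Dnmt1 match is 219 bases before the start its window belongs to and lies in an exon of 2 of the 7 Dnmt1 transcripts of GENCODE M21. The Uhrf1 match is 185 bases before its start and lies in no exon of Uhrf1. No such match was found in the windows of the other 7 members, which says only that these letters are not there. CpG pairs were more frequent in the members' windows, with a median ratio of observed to expected CpG of 0.58 against 0.37 over all windows, and it ran from 0.13 for windows of Dnmt1 and Dnmt3l to 1.19 for Tet2.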

How the data were processed

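Single-cell RNA sequencing of 96 mouse ES cells was used, 24 in each of 4 samples (2i or N2B27, small or ungated). The authors aligned Smart-seq2 reads to GRCm38 with GSNAP and counted them on Ensembl genes with HTSeq. The submitters' processing notes also name Trim Galore 0.4.4. The deposited values are raw counts per gene and cell, 1 table per plate and medium, not normalized, and each column was matched to its sample through the deposited list of runs. Totals leave out spike-ins and rows with no gene, which held, of all counts, 11.1% not aligned, 6.77% ambiguous between genes, 4.81% on no feature, 3.85% on ERCC spike-ins, 1.09% of low alignment quality and 0.0498% not uniquely aligned.

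Cells beyond 3 median absolute deviations in counts or genes (log scale, low) or mitochondrial share (high) of their medium were left out. Lower limits were 307960 counts and 4435 genes in 2i and 1250610 counts and 5316 genes in N2B27. Size factors came from DESeq2 1.42.0 over the 1227 genes with a count in every kept cell, phases from cyclone of scran 1.30.0, without the 167 of 28492 marker pairs that hold a member (3 members are markers), and other phases from Seurat 5.3.0. Everything else, the filter on cells included, used Python 3.11.15 with pandas 2.3.3, numpy 2.4.6 and scipy 1.17.1. No doublet caller was run, and how single cells were placed in wells is not given in the sources used here. Levels are means of normalized counts, ratios have a pseudocount of 1, and genes with a mean of the 4 group means of at least 20 served as background. With 1 sample per group no test was made. Counts have exact Poisson and shares exact Clopper-Pearson intervals of 95%, for counting error only, since reads are not independent molecules. Copies were annotated transcripts at least 90% identical over at least 300 bases. Gene positions are from GENCODE M21, of the files' build. The calculation of the ratio was run on simulated counts with known changes, modelled on the ungated groups only. These had the same spread for all genes and a median scaling of their own. They lacked the split between high and near-empty cells, so they cannot show how far such cells move a ratio.

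The 9 members, the pathway lists and the markers were chosen with earlier results of these data known. Of each list the genes with the highest and lowest ratio in 3 comparisons were named, always Dnmt3c, Dppa3, Prdm14, Usp7 and Hells, and the 3 genes most like each member present in at least 50% of the cells. Some genes that this rule names are not reported here.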

Additional observations from a re-analysis of the deposited data

Results flagged for a closer look

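Dnmt1 and Dnmt3l had log2 ratios of opposite sign in parallel comparisons, and the difference between the ratios was not tested, since each group is 1 sample. For Dnmt1 the ratio of N2B27 over 2i was 2.09 in small cells and -1.44 in ungated cells. For the same gene small cells stood at 2.05 over ungated cells in N2B27 and at -1.49 in 2i. Cells of all 4 groups overlapped, with Dnmt1 at 0 in at least 2 cells of each. For Dnmt3l the ratio of N2B27 over 2i was -0.82 in small cells and 0.85 in ungated cells, both under 2-fold, and in ungated cells the medians (285 and 293 normalized counts) did not share the difference of the means. With spike-in scaling the medium ratio of Dnmt1 in small cells was -1.25, so that both media ratios were then negative.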

How the results depend on the processing

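No paired analysis was possible because each group is 1 sample and all samples carry the same replicate number. The counts of members beyond 2-fold varied with the setting, and so did the share of all genes beyond 2-fold. For N2B27 over 2i in ungated cells, 0 were higher, but 1 with no filter on cells, with fixed limits or in S phase cells and 2 with poscounts size factors, while 3 were lower (9.92% of all genes), but 0 with poscounts (5.67%), 1 in S phase (30.6%), 2 with spike-in scaling (8.68%) and 4 with means of log2 values (37.2%). With no filter and with fixed limits the count was also 3 (13.5% and 11.5%), but of Uhrf1, Tet1 and Tdg in place of Dnmt1, Uhrf1 and Tet2. In small cells 4 were higher, but 0 with no filter, 1 with spike-in scaling and 2 with means of log2 values, and 1 was lower, but 2 with scran, poscounts or pooled counts, 3 with no filter or means of log2 values and 5 with spike-ins. The share of all genes ran there from 1.8% to 30.4% for higher and from 13.2% to 72.9% for lower. For small over ungated N2B27 cells 1 was higher, but 0 with spike-ins and 3 in S phase, and 3 were lower, but 5 with spike-ins, in S phase or with means of log2 values. The shares ran from 3.75% to 28.7% and from 12.5% to 42.4%. In 2i 0 were higher, but 3 with no filter and 1 with poscounts or in S phase, and 4 were lower, but 2 with poscounts and 7 with means of log2 values, at shares from 3.72% to 39.1% and from 4.19% to 60%. An equal count does not mean the same genes, since with no filter the 4 lower in 2i were Uhrf1, Dnmt3b, Tet1 and Tdg. Adding the pseudogene copies, an alternative chosen after seeing the data like those by index row, gave 5 lower in 2i.

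Ratios past 2-fold changed sign as follows. With no filter on cells, Tet2 for medium was 5.33 in ungated cells (5.24 with fixed limits), Dnmt3a and Tet3 were -1.94 and -9.06 for medium in small cells, and Dnmt1, Dnmt3a and Tet3 were 0.25, 2.12 and 8.96 for gate in 2i. With no filter, wells with as few as 9568 counts on genes are kept. With spike-in scaling Dnmt1, Tet1 and Tet3 were -1.25, -0.96 and -1.59 for medium in small cells, and Dnmt1 and Tet3 were 0.66 and 0.40 for gate in 2i. That scaling moved the median of all genes to -1.56 for medium in small cells and to 0.78 for gate in 2i. In S phase cells Tet2 was 1.62 for medium in small cells and Tet3 1.21 for gate in 2i. Tet3 for gate in 2i was also 0.16 with means of log2 values and 0.47 without the highest cell. Tdg for gate in N2B27 was 0.085 with fixed limits. With Seurat phases, G1 over S was 0.16 for Dnmt3b, 0.11 for Dnmt3l and -4.59 for Tet2 in 2i small, and -0.48 for Dnmt3a, 5.02 for Dnmt3b and 1.15 for Dnmt3l in N2B27 small. The cause was not tested for these. Of the ratios past 2-fold, none changed sign where 1 cell of 2i small was left out, either that with most spike-in counts or that with most genes. Tet3 had 14 to 120 counts per group, in 1 to 3 cells.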

Other observations

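Wells left out for quality still held member counts. The 10 wells with more spike-in than gene counts held 489 counts of Tet2, of which 472 were in 1 well, 324 of Tet3, all in 1 well, and 104 of Dnmt3a, of which 96 were in 1 well, but 0 of Tdg. Dnmt1, Uhrf1, Dnmt3b and Dnmt3l reached at most 2 counts in any of these wells. The other 11 wells left out held 5167 counts of Tet1 in 10 of them, 2281 of Dnmt3a in 7 and 4 of Dnmt3b in 3.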
